A study of Rattus rattus with 24 samples.

Results

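The comparison of quetiapine with T3 at 96 hours set 3 Affymetrix arrays of rat oligodendrocyte precursor cell (OPC) cultures kept in 1 μM quetiapine for 4 days against 3 arrays of cultures kept in 45 nM T3 (triiodothyronine) for 4 days, 6 of the 24 arrays of the series. The arrays were chosen by their labels alone and were paired by replicate number. OPCs had been selected with A2B5 beads from the cortices of rat pups in the first postnatal week and expanded with PDGF before treatment, and the medium was renewed with the same treatment on day 2. All cultures were grown in a medium whose B27 supplement carries a small amount of T3, and all received the DMSO vehicle. The labels record the organism as Rattus rattus, and the methods name Sprague Dawley rats. By the series' design text, each of the 3 biological replicates gave a control, a T3, a quetiapine and a T3 plus quetiapine culture. These were taken at 48 and at 96 hours, so 3 untreated controls and 3 cultures with both compounds stood beside the 6 arrays. A biological replicate is called a preparation below, although the labels do not state that each was a separate isolation of cells. Quetiapine and T3 are unrelated compounds, and each was used at 1 dose, so the values below compare those doses and not the potency of the compounds. Values are log2 expression as deposited, a difference is quetiapine minus T3, and a difference of 1 is a doubling.

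T3 is the active thyroid hormone, which binds nuclear receptors that sit on their target genes, and it is the hormone most used to drive OPCs in culture to leave the cell cycle and become oligodendrocytes. Quetiapine is an antipsychotic drug that blocks receptors for dopamine, serotonin, histamine and noradrenaline at the cell surface. Oligodendrocytes wrap axons with myelin, a membrane rich in cholesterol and galactolipids. Making it needs sterol synthesis within the brain, since sterol in blood does not cross into the brain. The comparison asks in which genes cultures under the 2 compounds differed from each other after 4 days, and not how either differed from control.

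The cultures carried the genes that mark the lineage. Pdgfra, the PDGF receptor of precursors, had a mean of 12.005 with quetiapine and 11.76 with T3, Olig1 13.28 and 13.29, and Mbp, a main protein of myelin, 14.29 and 14.26, where the medians of the 6 arrays lay between 6.46 and 6.49. Astrocyte genes were also well above that median, among them Gfap, the filament protein of astrocytes, with 13.09 and 13.50. In bulk RNA, fewer cells of a type and less RNA per cell cannot be told apart. The signals of 16 microglia genes had means between 5.26 and 5.68 on the 6 arrays, and those of 17 vascular and fibroblast genes between 4.96 and 5.07. Arrays of 1 group correlated at 0.986 to 0.996 over probe sets. The 3′ minus 5′ difference of the beta-actin control probe sets, a measure of RNA integrity, was 0.674, 0.689 and 0.766 with T3 and 0.601, 0.660 and 0.723 with quetiapine, lower with quetiapine in each pair by less than 0.08, and its part in the results was not tested.

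After 4 days the 2 treatments left clearly different expression profiles, and the larger differences were in genes with more signal under T3. A probe set was called where its adjusted p from limma was under 0.05 and its fold was over 1.5, and by this rule 350 of 31042 probe sets (1.13%) were higher with quetiapine and 993 (3.2%) were lower. By the adjusted p without the fold, 1721 (5.54%) were higher and 1898 (6.11%) lower. The 350 stood for 220 named genes and the 993 for 654. Of 335 called genes with over 1 probe set on the array, 249 had another probe set that was not called. For 0 genes were probe sets called in both directions. Of the lower probe sets 432 differed more than 2-fold, 83 more than 4-fold and 21 more than 8-fold, whereas of the higher ones 48 passed 2-fold and 0 passed 4-fold, the largest being 1.78 on the log2 scale for a probe set with no symbol. The median difference was 0.72 among the higher and -0.93 among the lower probe sets, beside 0.026 over all probe sets and a median standard error of 0.089. In all 3 pairs the difference had the same sign for 349 of the 350 and 993 of the 993. The calls were made on these same pairs, so this agreement is not a separate check of them. Leaving out a single array moved the number of higher probe sets by more than 1.5 times in 2 cases, to 224 where T3 replicate 2 was dropped and to 230 where quetiapine replicate 2 was dropped. Of the 350 higher probe sets 289 had 3 quetiapine values above the 3 T3 values, and of the 993 lower ones 748 had them below. Counted over all 14217 genes with 1 probe set each, the values did not overlap for 14% with quetiapine above and 10.6% with quetiapine below. Without the replicate as a block, 126 were higher and 445 lower.

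**Figure D1:**
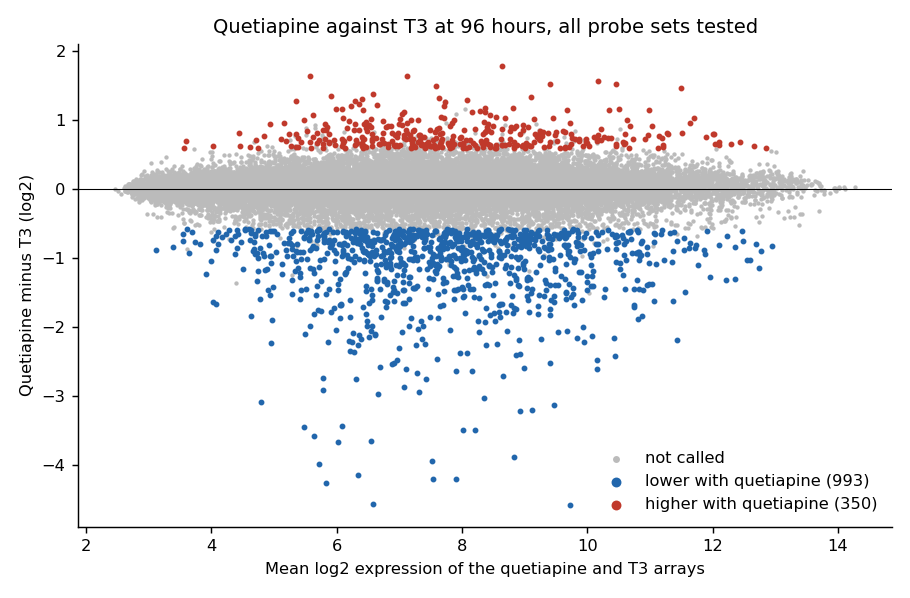
Each point is 1 of the 31042 probe sets, with the mean log2 expression of the 6 arrays on the x axis and the difference quetiapine minus T3 at 96 hours (log2) on the y axis. The 993 lower probe sets (blue) reach -4.58 and the 350 higher ones (red) reach 1.78.

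The untreated cultures showed on which side the levels lay. For the 350 probe sets higher with quetiapine, the control mean was above both treatments for 179, between them for 100 and below both for 71, and it was nearer to quetiapine than to T3 for 246 (70.3%). For the 993 lower ones, the control mean lay between the treatments for 636, below both for 203 and above both for 154, and it was nearer to quetiapine for 572 (57.6%). Cultures given both compounds had a mean nearer to quetiapine for 88 (25.1%) of the 350 and for 478 (48.1%) of the 993. These are counts of group means without a test, and the 4 groups come from the same preparations.

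Among single genes, those lower with quetiapine by the largest amounts have roles in retinoid, melanin, thyroid hormone and adenosine metabolism, ion transport and secretion. Dct, the dopachrome tautomerase of melanin synthesis, had 12.46, 12.06 and 11.49 with T3 and 8.77, 7.28 and 6.22 with quetiapine. The groups lay far apart, with a difference of -4.58 (SE 0.35, adjusted p = 3.76e-05). The rule that named the genes of this paragraph admitted only genes whose groups did not overlap. Rpe65, the isomerohydrolase that regenerates visual retinoid in the eye, had 9.78, 9.93 and 10.31 with T3 and 6.46, 5.48 and 5.44 with quetiapine. Its difference was -4.21 (SE 0.24, adjusted p = 6.42e-06), a 18.6-fold higher signal with T3, and the controls had 4.86, 4.99 and 5.16. Aldh1a1, a retinaldehyde dehydrogenase that makes retinoic acid, had 8.28, 10.21 and 10.42 with T3 and 4.73, 5.74 and 5.83 with quetiapine. T3 replicate 1 was the lowest of its group for this gene and still above all quetiapine arrays, and the difference was -4.20 (SE 0.25, adjusted p = 8.94e-06).

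Nt5e, the surface enzyme that turns AMP into adenosine, had 8.72, 8.01 and 8.50 with T3 and 4.23, 4.17 and 4.35 with quetiapine. The quetiapine arrays lay within 0.18 of each other at the level of the controls (4.44, 4.54 and 4.45), and the difference was -4.15 (SE 0.13, adjusted p = 1.3e-07). Scg2, a granin stored in secretory granules, had 7.29, 9.64 and 9.65 with T3 and 3.63, 4.78 and 4.44 with quetiapine and a difference of -4.58 (SE 0.23, adjusted p = 2.96e-06). For Scg2 quetiapine also lay under the controls (5.02, 6.57 and 6.31), with quetiapine minus control at -1.69 (adjusted p = 0.000855) and T3 minus control at 2.89 (adjusted p = 3.17e-05). Slc12a7, a potassium and chloride cotransporter, had 10.08, 9.29 and 9.94 with T3 and 6.40, 6.19 and 6.22 with quetiapine and a difference of -3.50 (SE 0.17, adjusted p = 2.96e-06). Its controls, at 5.96, 6.20 and 6.18, lay at the level of the quetiapine arrays. For Nt5e, Scg2 and Slc12a7 the groups did not overlap, as the rule that named them required. A second Slc12a7 probe set, with means of 5.65 and 5.58, gave 0.074 and did not pass (adjusted p = 0.722).

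Further genes with large negative differences were of several kinds. Ccl2, the chemokine that draws monocytes, had 6.26, 7.88 and 8.17 with T3 and 3.72, 4.04 and 3.77 with quetiapine, with a difference of -3.59 (SE 0.43, adjusted p = 0.000552). Its controls stood between the treatments at a mean of 5.49, with T3 minus control 1.94 (adjusted p = 0.00807) and quetiapine minus control -1.65 (adjusted p = 0.024). Tagln3, a neuronal calponin family protein, had 9.91, 11.08 and 11.15 with T3 and 7.10, 7.81 and 7.60 with quetiapine and a difference of -3.21 (SE 0.14, adjusted p = 1.61e-06). Kctd14 differed by -3.49 (SE 0.24, adjusted p = 2.22e-05), the tetraspanin Tspan4 by -3.22 (SE 0.21, adjusted p = 1.42e-05) and Cyb561, the cytochrome b561 of secretory granule membranes, by -2.98 (SE 0.26, adjusted p = 9.07e-05). For Ccl2, Tagln3, Kctd14, Tspan4 and Cyb561 the groups did not overlap, as the rule that named them required. Fgl2, a fibrinogen-like protein with 4 probe sets on the array, was lower with quetiapine by all 4, between -3.46 and -0.98.

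**Figure D2:**
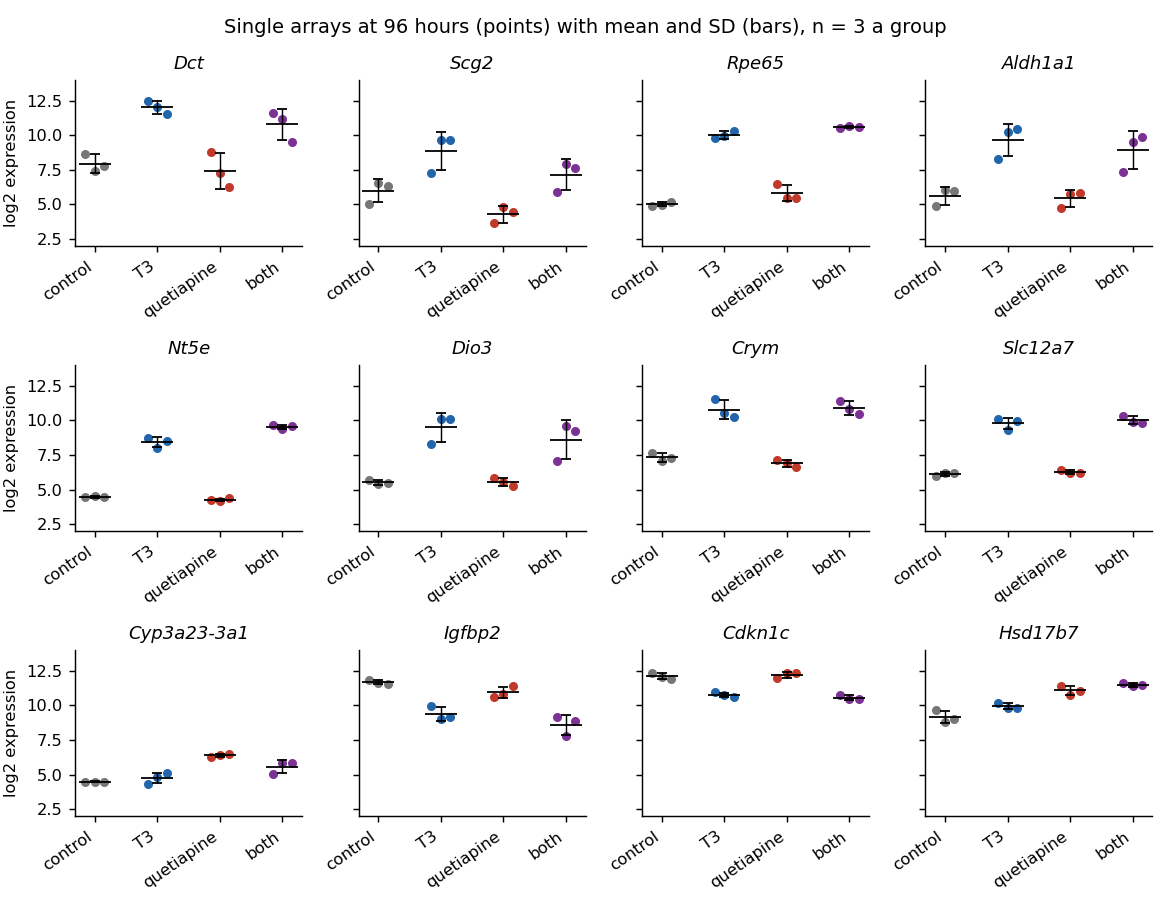
Log2 expression at 96 hours on the y axis for 12 genes in the control, T3, quetiapine and combined cultures (both), with 3 arrays a group as points and the mean and SD as bars. In the upper 8 panels all T3 arrays lie above all quetiapine arrays, and in the lower 4 the order of T3 and quetiapine is turned.

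Thyroid hormone response genes were lower with quetiapine for a large share of the list. Counted 1 probe set a gene at an adjusted p under 0.05, 11 of 21 measured members were lower and 1 was higher, with a median difference of -0.64, where 7.77% of all 14217 genes were lower, 6.66% were higher and the median of all probe sets was 0.026. Without the replicate block 0 were higher and 7 lower. For members of the lists, lost means no longer past an adjusted p of 0.05. The 1 higher member, Nrgn, differed by 0.70 (SE 0.18, adjusted p = 0.0354) and was lost without T3 replicate 1, T3 replicate 2, quetiapine replicate 2, T3 replicate 3 or quetiapine replicate 3 (adjusted p up to 0.169). Hr, a corepressor that is a direct target of the receptors, had 10.09, 10.12 and 10.15 with T3 and 7.78, 7.78 and 7.63 with quetiapine. Both groups were tight and the difference was -2.39 (SE 0.071, adjusted p = 1.3e-07). Quetiapine itself stood above control for Hr, by 0.55 (adjusted p = 0.000617), against 2.94 for T3. Klf9, a zinc finger factor induced by T3, had 10.82, 11.26 and 11.34 with T3 and 8.17, 9.53 and 9.32 with quetiapine and a difference of -2.13 (SE 0.16, adjusted p = 2.91e-05). A second Klf9 probe set gave -1.37 and a low-signal one gave 0.0094, which did not pass (adjusted p = 0.968). Thrsp, which promotes lipogenesis, differed by -2.48 (SE 0.43, adjusted p = 0.00494), and malic enzyme Me1 by -1.25 (SE 0.19, adjusted p = 0.00226). For Thrsp the 48 hour difference was -0.76 (adjusted p = 0.012). For Hr, Klf9, Thrsp and Me1 the groups did not overlap. Thrsp and Nrgn did not pass without the replicate block (adjusted p = 0.0631 to 0.303).

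Proteins that bind, carry or inactivate the hormone held some of the same pattern. Dio3, the deiodinase that inactivates T3, had 8.28, 10.10 and 10.08 with T3 and 5.83, 5.56 and 5.24 with quetiapine. T3 replicate 1 was lower than its group, the quetiapine arrays matched the controls (5.71, 5.40 and 5.44), and the difference was -3.94 (SE 0.53, adjusted p = 0.00117). Crym, a cytosolic T3 binding protein, had 11.53, 10.52 and 10.23 with T3 and 7.15, 6.89 and 6.60 with quetiapine and a difference of -3.88 (SE 0.15, adjusted p = 6.97e-07). Slc7a8, an amino acid transporter that also carries thyroid hormones, differed by -1.14 (SE 0.20, adjusted p = 0.00498). The hormone transporter Slco1c1 was higher with quetiapine by 0.71 (SE 0.18, adjusted p = 0.0301), which did not pass without quetiapine replicate 1, T3 replicate 2, quetiapine replicate 2, T3 replicate 3 or quetiapine replicate 3 (adjusted p up to 0.147). The receptor gene Thra differed by 0.10 (95% interval -0.033 to 0.23) and Thrb by -0.74 (-1.28 to -0.21), neither past the test. In all, 4 of 18 measured members were lower and 1 higher, and the higher count became 0 with T3 replicate 2, quetiapine replicate 2, T3 replicate 3 or quetiapine replicate 3 left out. Beside 6.66% higher and 7.77% lower over all genes, this list had 5.56% and 22.2%, and with no block 0 and 2 of its members passed. For Dio3, Crym and Slco1c1 the groups did not overlap, and for Slc7a8 they overlapped. The rule that named Dio3 and Crym required groups without overlap. Slc7a8 and Slco1c1 did not pass without the replicate block (adjusted p = 0.111 to 0.125).

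Enzymes of sterol synthesis were higher with quetiapine almost throughout. Of 19 measured enzymes, 16 were higher and 0 lower, all 19 differences were positive and the median was 0.63. In shares, 84.2% were higher and 0% lower, against 6.66% and 7.77% of all genes, and the fit with no block left 11 higher and 0 lower. Hsd17b7, which reduces a keto group late in the pathway, had 11.43, 10.75 and 11.06 with quetiapine and 10.18, 9.79 and 9.80 with T3, a difference of 1.15 (SE 0.11, adjusted p = 0.000167). Fdft1, squalene synthase, had 11.66, 11.28 and 11.52 with quetiapine and 10.82, 10.49 and 10.42 with T3, and the difference was 0.91 (SE 0.10, adjusted p = 0.000374). Mvd, the mevalonate diphosphate decarboxylase, had 11.02, 10.38 and 10.55 with quetiapine and 10.19, 9.66 and 9.51 with T3 and differed by 0.86 (SE 0.10, adjusted p = 0.000406). In each of these the lowest quetiapine array lay above the highest T3 array, as a rule that named Hsd17b7 required. Lss, which closes the ring to form lanosterol, differed by 0.81 (SE 0.10, adjusted p = 0.000722), Cyp51, which demethylates lanosterol, by 0.62 (SE 0.076, adjusted p = 0.000686), and Sqle, which forms the epoxide before ring closure, by 0.63 (SE 0.10, adjusted p = 0.00219). A second probe set gave 1.10 for Hsd17b7, 0.83 for Fdft1 and 0.70 for Lss. Mvd did not pass without the replicate block (adjusted p = 0.119).

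Both compounds stood above control in this pathway. T3 minus control was positive and past the test for 13 of the 19 enzymes and quetiapine minus control for 18, beside 11.9% and 8.96% of all genes, with medians of 0.35 and 1.12. Fdft1, for instance, was 0.26 (adjusted p = 0.0928) for T3 and 1.17 (adjusted p = 6.71e-05) for quetiapine, and Cyp51 was 0.61 (adjusted p = 0.00041) and 1.23 (adjusted p = 1.01e-05). The enzymes that did not pass between the treatments were Lbr, Ggps1 and Ebp, with 0.22 (95% interval 0.056 to 0.39), 0.22 (0.032 to 0.41) and 0.36 (-0.068 to 0.78). The count of 16 was the same without each single array in turn. At 48 hours 16 were higher and 0 lower, with a median of 0.60, where 5.14% and 6.91% of all genes were higher and lower.

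**Figure D3:**
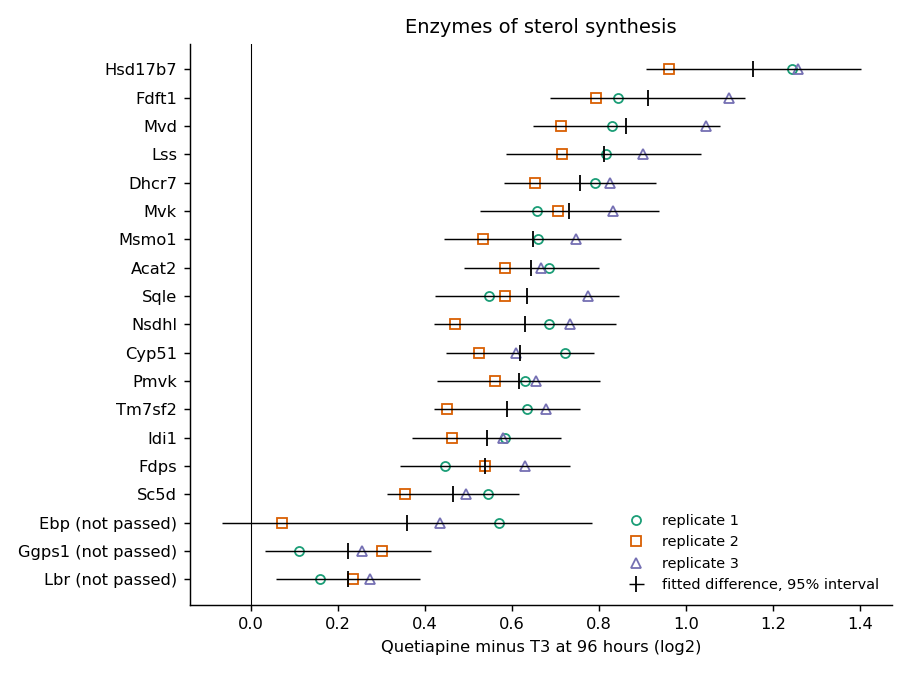
Difference quetiapine minus T3 at 96 hours (log2, x axis) for the 19 measured enzymes of sterol synthesis, with 1 open symbol for each of the 3 replicate pairs and the fitted difference with its 95% interval in black. Every pair of every enzyme lies above 0, and Hsd17b7 has the largest fitted difference, 1.15.

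Genes around sterol synthesis did not move as a block. Of 13 genes of sterol sensing, uptake and transport, 3 were higher and 1 lower, and the lower count became 2 with control replicate 1, T3 replicate 1, combination replicate 1 or combination replicate 3 left out. All genes together gave 6.66% higher and 7.77% lower, where these gave 23.1% and 7.69%, and 1 and 1 passed in the fit with no block. Insig1, a sterol-regulated retention protein of the endoplasmic reticulum, had 12.53, 12.18 and 12.52 with quetiapine and 11.58, 11.51 and 11.76 with T3 and a difference of 0.79 (SE 0.087, adjusted p = 0.000353). Stard4, a carrier of cholesterol inside the cell, differed by 0.84 (SE 0.12, adjusted p = 0.00195), and Mylip, the ubiquitin ligase that degrades the LDL receptor, by -1.05 (SE 0.10, adjusted p = 0.000167). Srebf2, the factor that switches on the sterol genes, differed by 0.46 (SE 0.088, adjusted p = 0.00878), which did not pass without T3 replicate 2 (adjusted p up to 0.0569). Of 12 genes of cholesterol efflux, 5 were lower and 0 higher, with a median of -0.48. Nceh1, which frees cholesterol from its esters, differed by -0.70 (SE 0.11, adjusted p = 0.00259), and Soat1, which forms the esters, by -0.75 (SE 0.15, adjusted p = 0.0117), lost without T3 replicate 1 (adjusted p up to 0.0558). The efflux pumps Abca1 and Abcg1 differed by -1.27 (SE 0.32, adjusted p = 0.0313) and -1.18 (SE 0.32, adjusted p = 0.0413), the first lost without T3 replicate 1, quetiapine replicate 1, T3 replicate 2, T3 replicate 3 or quetiapine replicate 3 (adjusted p up to 0.126) and the second without T3 replicate 1, T3 replicate 2, quetiapine replicate 2, combination replicate 2, control replicate 3, T3 replicate 3, quetiapine replicate 3 or combination replicate 3 (adjusted p up to 0.187). For Insig1, Stard4, Mylip, Nceh1 and Abcg1 the groups did not overlap, and for Abca1 they overlapped. Further Abcg1 probe sets gave -0.18 (adjusted p = 0.489) and -0.0033 (adjusted p = 0.986), neither past the test. A second Srebf2 probe set gave 0.029 and did not pass (adjusted p = 0.905). The efflux count became 2 with T3 replicate 1 left out and 3 with T3 replicate 2, T3 replicate 3 or quetiapine replicate 3 left out. As a share of the list, 0% were higher and 41.7% lower (6.66% and 7.77% of all genes), with 0 and 2 past the test without the block. Stard4, Srebf2, Abca1 and Abcg1 did not pass without the replicate block (adjusted p = 0.0931 to 0.294).

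Fatty acid genes of synthesis went both ways, and the genes of oxidation that passed were lower with quetiapine. Of 23 genes of fatty acid synthesis and acetyl-CoA supply, 5 were higher and 5 lower. The lower ones held Thrsp (-2.48) and Me1 (-1.25), described above with the thyroid hormone genes. Shares over all genes were 6.66% higher and 7.77% lower, and here 21.7% and 21.7%, while 2 and 2 members passed without the block. Aacs, which turns acetoacetate into acetoacetyl-CoA, had 10.52, 9.96 and 10.22 with quetiapine and 9.43, 9.01 and 8.87 with T3 and a difference of 1.14 (SE 0.10, adjusted p = 0.000105). Acss2 and Acly, which make cytosolic acetyl-CoA from acetate and citrate, differed by 0.95 (SE 0.13, adjusted p = 0.00146) and 0.57 (SE 0.073, adjusted p = 0.000844). Gpam, the first enzyme of glycerolipid assembly, had 4.84, 5.26 and 5.54 with quetiapine and 5.88, 6.12 and 6.72 with T3, a difference of -1.03 (SE 0.12, adjusted p = 0.000478). Of 23 genes of fatty acid oxidation and PPAR response, 7 were lower and 0 higher, with a median of -0.20, and 4 were lower without T3 replicate 2 or quetiapine replicate 3. Without the block 0 passed as higher and 1 as lower, and the shares of 0% and 30.4% compare with 6.66% and 7.77% over all genes. Plin2, a coat protein of lipid droplets, had 7.54, 8.73 and 9.08 with quetiapine and 9.50, 10.13 and 10.35 with T3, a difference of -1.54 (SE 0.12, adjusted p = 4.55e-05). Cpt1a, which takes fatty acids into mitochondria, differed by -1.23 (SE 0.16, adjusted p = 0.00114) and Hadh, a step of beta oxidation, by -0.74 (SE 0.12, adjusted p = 0.00323). For Cpt1a quetiapine minus control was -1.38 (adjusted p = 0.00043) and T3 minus control -0.15 (adjusted p = 0.589). For Aacs, Acss2, Acly, Gpam, Plin2 and Hadh the groups did not overlap, and for Cpt1a they overlapped. A second Hadh probe set gave -0.24 and did not pass (adjusted p = 0.355). Acly, Plin2 and Cpt1a did not pass without the replicate block (adjusted p = 0.0802 to 0.191).

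Most structural myelin genes did not pass the test, and those that did were lower with quetiapine. Of 17 myelin protein genes 4 were lower and 0 were higher, with a median of -0.10. The shares, 0% higher and 23.5% lower, stand beside 6.66% and 7.77% of all genes, and without the replicate block 0 passed as higher and 3 as lower. The mean signal of the 17 genes was 10.69, 11.28 and 11.40 with quetiapine and 11.11, 11.64 and 11.83 with T3, lower with quetiapine in each pair, and 9.91, 10.13 and 10.01 in the controls. Mbp had 14.39, 14.25 and 14.23 with quetiapine and 14.23, 14.26 and 14.30 with T3, overlapping values with a difference of 0.028 and a 95% interval of -0.12 to 0.18. Its further probe sets gave 0.00097 and, at lower means of 8.995 and 8.67, 0.33 (adjusted p = 0.2), neither past the test. Other members with intervals inside 0.25 on both sides included Mag (0.024, -0.16 to 0.21), Cnp (0.0075, -0.12 to 0.13) and Cldn11 (-0.084, -0.24 to 0.073), which act in axon contact, the myelin cytoplasm and tight junctions. Intervals were wide for Mal (-2.48 to 0.086) and Opalin (-2.22 to -0.068), and with 3 arrays a group they did not settle whether such genes differed by more than 1.

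Members that passed were Mog, Pmp2, Cd9 and Pmp22. Mog, a protein of the outermost myelin layer, had 9.57, 10.65 and 10.72 with quetiapine and 10.72, 11.51 and 11.81 with T3. The highest quetiapine array reached the lowest T3 array, each pair was lower with quetiapine, and the difference was -1.03 (SE 0.11, adjusted p = 0.000343). Both compounds stood above control for Mog, T3 by 3.85 (adjusted p = 4.35e-08) and quetiapine by 2.82 (adjusted p = 8.23e-07). Pmp2, a fatty acid binding protein of myelin, differed by -1.36 (SE 0.29, adjusted p = 0.0137), lost without T3 replicate 1 (adjusted p up to 0.0511). The tetraspanin Cd9 differed by -1.15 (SE 0.23, adjusted p = 0.0112), lost without T3 replicate 3 (adjusted p up to 0.0571), and Pmp22, named more for peripheral myelin, by -0.71 (SE 0.13, adjusted p = 0.00573). Mog did not pass without the replicate block (adjusted p = 0.197).

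Outside myelin itself, 6 of 30 genes of mature oligodendrocytes were lower and 0 higher, with a median of -0.05. Ninj2, an adhesion protein, had 9.09, 8.94 and 8.50 with quetiapine and 11.32, 11.01 and 10.85 with T3 and a difference of -2.22 (SE 0.18, adjusted p = 4.79e-05). Aspa, which splits N-acetylaspartate and so supplies acetate, differed by -0.62 (SE 0.10, adjusted p = 0.00302). Car2, the carbonic anhydrase of oligodendrocytes, differed by -1.41 (SE 0.35, adjusted p = 0.0292), lost without quetiapine replicate 1, T3 replicate 2, quetiapine replicate 2 or T3 replicate 3 (adjusted p up to 0.139). Gjb1, a gap junction protein, and Ppp1r14a differed by -1.06 (SE 0.22, adjusted p = 0.0135) and -0.81 (SE 0.20, adjusted p = 0.027), the first lost without T3 replicate 2, quetiapine replicate 2, T3 replicate 3 or quetiapine replicate 3 (adjusted p up to 0.0683) and the second without T3 replicate 2, quetiapine replicate 2, T3 replicate 3 or quetiapine replicate 3 (adjusted p up to 0.136). For Ninj2, Aspa and Gjb1 the groups did not overlap, and for Car2 and Ppp1r14a they overlapped. The count of 6 became 2 with T3 replicate 2, quetiapine replicate 2 or T3 replicate 3 left out and 3 with quetiapine replicate 3 left out. Beside 6.66% higher and 7.77% lower over all genes, this list had 0% and 20%, and with no block 0 and 2 of its members passed. Against control, 22 of the 30 stood higher with T3 and 21 with quetiapine. Car2, Gjb1 and Ppp1r14a did not pass without the replicate block (adjusted p = 0.121 to 0.254).

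Precursor genes were mixed, and the lineage factors that passed were higher with quetiapine. Nes, the intermediate filament of progenitors, had 8.85, 9.10 and 9.86 with quetiapine and 8.34, 8.18 and 8.67 with T3, a difference of 0.87 (SE 0.13, adjusted p = 0.00208), with controls at 9.64, 9.49 and 10.33. Egfr, a growth factor receptor, differed by 0.86 (SE 0.17, adjusted p = 0.00922), lost without T3 replicate 2 (adjusted p up to 0.0503). Emid1, an extracellular matrix protein expressed in precursors, went the other way, with 6.31, 7.41 and 6.76 with quetiapine and 9.19, 10.04 and 10.34 with T3 and -3.03 (SE 0.17, adjusted p = 5.48e-06). In all, 5 of 25 precursor genes were higher and 3 lower, with a median of 0.06. Their higher count became 1 with T3 replicate 2 left out, 2 with quetiapine replicate 1, quetiapine replicate 2 or T3 replicate 3 left out and 3 with T3 replicate 1 or quetiapine replicate 3 left out, and the lower count 1 with T3 replicate 2 or quetiapine replicate 3 left out. In shares, 20% were higher and 12% lower, against 6.66% and 7.77% of all genes, and the fit with no block left 0 higher and 1 lower. Pdgfra differed by 0.24 (95% interval -0.013 to 0.50). Of 27 lineage transcription factors 5 were higher and 0 lower. Etv5, an ETS factor downstream of ERK, had 8.49, 7.79 and 8.36 with quetiapine and 7.44, 6.89 and 7.26 with T3 and a difference of 1.02 (SE 0.17, adjusted p = 0.00462), and Sox3, a progenitor factor, had 9.64, 9.22 and 9.36 with quetiapine and 9.15, 8.45 and 8.76 with T3 and 0.62 (SE 0.095, adjusted p = 0.00251). Olig2, which specifies the lineage, differed by 0.57 (SE 0.12, adjusted p = 0.0129), which did not pass without T3 replicate 2, quetiapine replicate 2, T3 replicate 3 or quetiapine replicate 3 (adjusted p up to 0.074). The count of factors became 2 with T3 replicate 2 or quetiapine replicate 2 left out and 3 with quetiapine replicate 3 left out. All genes together gave 6.66% higher and 7.77% lower, where these gave 18.5% and 0%, and 0 and 0 passed in the fit with no block. For Nes, Emid1, Etv5, Sox3 and Olig2 the groups did not overlap, and for Egfr they overlapped. A rule that named Emid1 required groups without overlap. Further probe sets gave 0.11 for Etv5, 0.087 for Olig2 and 0.78 and 0.037 for Egfr, none past the test. Nes, Egfr, Etv5, Sox3 and Olig2 did not pass without the replicate block (adjusted p = 0.134 to 0.57).

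Genes of the Notch, Hes and Id family, which hold back differentiation, went both ways. Of 19 members 5 were higher and 3 lower, with a median of 0.0099. As a share of the list, 26.3% were higher and 15.8% lower (6.66% and 7.77% of all genes), with 1 and 2 past the test without the block. Hey1, a Notch target, had 7.86, 8.82 and 8.43 with quetiapine and 9.27, 9.83 and 9.96 with T3 and a difference of -1.32 (SE 0.14, adjusted p = 0.000301). Id2, an inhibitor of helix-loop-helix factors, had 9.91, 10.78 and 10.96 with quetiapine and 11.31, 11.77 and 11.87 with T3, a difference of -1.10 (SE 0.13, adjusted p = 0.000515). Hes5, the Notch effector of progenitors, had 7.97, 8.45 and 8.11 with quetiapine and 7.72, 6.51 and 7.20 with T3 and a difference of 1.03 (SE 0.24, adjusted p = 0.0231). It did not pass without T3 replicate 2, quetiapine replicate 2, T3 replicate 3 or quetiapine replicate 3 (adjusted p up to 0.111), and the count of higher members became 1 with T3 replicate 2, quetiapine replicate 2 or quetiapine replicate 3 left out, 2 with T3 replicate 1 or T3 replicate 3 left out and 3 with quetiapine replicate 1 left out. For Hey1, Id2 and Hes5 the groups did not overlap. A second Hes5 probe set gave 0.034 and did not pass (adjusted p = 0.866). Quetiapine minus control was -0.83 (adjusted p = 0.00272) for Hey1 and -0.80 (adjusted p = 0.0021) for Id2, and T3 minus control was -1.89 (adjusted p = 0.000509) for Hes5. Hes5 did not pass without the replicate block (adjusted p = 0.0831).

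DNA replication genes had higher signals with quetiapine, and mitotic genes had differences of the same sign that did not pass. All 28 measured genes of DNA replication and S phase had a positive difference, with a median of 0.53, and 16 of them passed. Shares over all genes were 6.66% higher and 7.77% lower, and here 57.1% and 0%, while 1 and 0 members passed without the block. Fen1, the flap nuclease, had 9.37, 9.56 and 10.05 with quetiapine and 8.73, 8.77 and 8.998 with T3 and a difference of 0.83 (SE 0.16, adjusted p = 0.00833), lost without T3 replicate 3 (adjusted p up to 0.0528). Pold1, a catalytic subunit of DNA polymerase delta, had 8.01, 7.70 and 7.88 with quetiapine and 7.40, 7.05 and 7.41 with T3 and 0.58 (SE 0.10, adjusted p = 0.00427), and Ccne2, the cyclin of S phase entry, 0.38 (SE 0.066, adjusted p = 0.00476). Cdt1, which loads the helicase at origins, differed by 0.91 (adjusted p = 0.0386), lost without T3 replicate 1, T3 replicate 2, quetiapine replicate 2, control replicate 3, T3 replicate 3 or quetiapine replicate 3 (adjusted p up to 0.15). The count of 16 was sensitive to single arrays and became 3 with quetiapine replicate 3 left out, 4 with T3 replicate 2 or quetiapine replicate 2 left out and 6 with T3 replicate 1 or T3 replicate 3 left out. Of 29 genes of G2 and mitosis, all had a positive difference (median 0.41, from 0.04 for Aurkb to 0.73 for Ttk) and 0 passed, with an adjusted p of 0.242 for Ttk by limma. Without combination replicate 1, 4 mitotic genes passed. Genes of 1 list are measured on the same arrays and are not independent, so their common sign is a single observation. For Fen1, Pold1, Ccne2 and Cdt1 the groups did not overlap. Fen1, Pold1 and Cdt1 did not pass without the replicate block (adjusted p = 0.0998 to 0.194).

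Against control, T3 stood lower for 25 of the 28 replication genes and 24 of the 29 mitotic genes, beside 18.2% of all genes lower, whereas quetiapine stood lower for 1 and 0 and higher for 1 and 0, beside 12.5% lower. The median difference from control had the same sign for both compounds, -0.80 with T3 and -0.26 with quetiapine over the replication genes and -1.09 and -0.62 over the mitotic genes.

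Regulators of the cell cycle differed in both directions. Of 19 G1 cyclins and inhibitors 4 were higher and 3 lower, with a median of 0.069. Without the block 1 passed as higher and 0 as lower, and the shares of 21.1% and 15.8% compare with 6.66% and 7.77% over all genes. The higher count became 1 with T3 replicate 1, T3 replicate 2, quetiapine replicate 2 or T3 replicate 3 left out and 2 with quetiapine replicate 3 left out, and the lower count 1 with T3 replicate 2, quetiapine replicate 2, T3 replicate 3 or quetiapine replicate 3 left out. Cdkn1c, the p57 inhibitor of cyclin-dependent kinases, had 11.97, 12.35 and 12.35 with quetiapine and 10.93, 10.74 and 10.64 with T3. All quetiapine arrays were near the controls (12.34, 12.06 and 11.89), T3 was lower, and the difference was 1.45 (SE 0.14, adjusted p = 0.000155). Cdkn1a, the p21 inhibitor, had 8.55, 9.50 and 9.79 with quetiapine and 10.14, 10.34 and 10.42 with T3 and a difference of -1.02 (SE 0.19, adjusted p = 0.00694), with T3 minus control at 1.23 (adjusted p = 0.00119). Ccnd2, a cyclin of the G1 phase, was higher by 0.72 (adjusted p = 0.0173), lost without T3 replicate 1, T3 replicate 2, quetiapine replicate 2 or T3 replicate 3 (adjusted p up to 0.0864). Igfbp2, which binds insulin-like growth factors, had 10.59, 10.84 and 11.39 with quetiapine and 9.95, 9.03 and 9.17 with T3, with a difference of 1.56 (SE 0.29, adjusted p = 0.0071). Its controls were at 11.82, 11.63 and 11.58, and T3 minus control was -2.29 (adjusted p = 0.000432). Igf1r, the receptor, was higher by 0.73 (SE 0.10, adjusted p = 0.00106), and Igfbp7 had a difference of -1.08 (SE 0.11, adjusted p = 0.000288). Of 14 imprinted growth genes 3 were higher and 0 lower, among them Mest by 0.97 (SE 0.16, adjusted p = 0.00396) and Ndn by 0.67 (SE 0.089, adjusted p = 0.00107) besides Cdkn1c. The shares, 21.4% higher and 0% lower, stand beside 6.66% and 7.77% of all genes, and without the replicate block 2 passed as higher and 0 as lower. For Cdkn1c, Cdkn1a, Igfbp2, Igf1r, Igfbp7, Mest and Ndn the groups did not overlap, and for Ccnd2 they overlapped. A rule that named Cdkn1c and Igfbp2 required groups without overlap. A second Cdkn1a probe set gave -0.52 and did not pass (adjusted p = 0.112). Cdkn1a, Ccnd2, Igfbp7 and Ndn did not pass without the replicate block (adjusted p = 0.0506 to 0.397).

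Single genes higher with quetiapine by the largest amounts had diverse roles. Cyp3a23-3a1, a cytochrome P450 that metabolizes steroids and drugs and shares sequence with other Cyp3a genes, had 6.25, 6.45 and 6.47 with quetiapine and 4.33, 4.85 and 5.09 with T3. The T3 arrays lay around the controls (4.45, 4.49 and 4.50), and the difference was 1.63 (SE 0.14, adjusted p = 7.98e-05). Greb1l had 7.06, 6.98 and 7.13 with quetiapine and 5.71, 5.68 and 5.88 with T3, a difference of 1.30 (SE 0.072, adjusted p = 5.48e-06) with little spread in either group. Igf2bp2, an RNA binding protein, had 10.12, 9.83 and 9.32 with quetiapine and 8.96, 8.25 and 8.08 with T3 and differed by 1.33 (SE 0.11, adjusted p = 5.57e-05). Rps6ka6, a kinase of the RSK family, differed by 1.37 (SE 0.16, adjusted p = 0.000457), the phosphatase Ptpn14 by 1.28 (SE 0.19, adjusted p = 0.00218), the ubiquitin ligase Rnf144b by 1.23 (SE 0.19, adjusted p = 0.00219) and the membrane protein Emp2 by 1.16 (SE 0.14, adjusted p = 0.000665). For Greb1l, Igf2bp2, Rps6ka6, Ptpn14, Rnf144b and Emp2 T3 was lower than control, with -1.04 for Igf2bp2 and -1.56 for Rps6ka6, while quetiapine minus control did not pass. The 3 quetiapine arrays lay above the 3 T3 arrays for every gene of this paragraph, as the rule that named them required. Slc35d3 differed by 1.49 (SE 0.29, adjusted p = 0.00972), lost without T3 replicate 3 or quetiapine replicate 3 (adjusted p up to 0.0574), and the glutamate receptor Grm7 by 1.27 (adjusted p = 0.049), lost without control replicate 1, T3 replicate 1, quetiapine replicate 1, T3 replicate 2, combination replicate 2, T3 replicate 3 or quetiapine replicate 3 (adjusted p up to 0.211). The uncharacterized LOC100909490, LOC102547113 and LOC102550366 differed by 1.52 (SE 0.18, adjusted p = 0.00049), 1.27 (SE 0.16, adjusted p = 0.000686) and 1.17 (SE 0.17, adjusted p = 0.00186). A second probe set of LOC102547113, with a higher signal, gave -0.013 (adjusted p = 0.957), and the other 4 probe sets of Ptpn14 gave -0.047 to 0.84, of which 1 passed. Second probe sets of Igf2bp2 and Emp2 gave 0.17 (adjusted p = 0.4) and 0.44 (adjusted p = 0.0707), neither past the test. Igf2bp2, Rps6ka6, Rnf144b, Emp2, Slc35d3, Grm7 and LOC102550366 did not pass without the replicate block (adjusted p = 0.0516 to 0.237).

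Feedback genes of the ERK pathway were higher for 7 of 27 members and lower for 2, with a median of 0.24. Beside 6.66% higher and 7.77% lower over all genes, this list had 25.9% and 7.41%, and with no block 0 and 0 of its members passed. Dusp6, the phosphatase of ERK, had 8.82, 9.60 and 9.27 with quetiapine and 8.08, 8.73 and 8.22 with T3. The quetiapine arrays were all above the T3 arrays, the difference was 0.89 (SE 0.22, adjusted p = 0.0285), and it did not pass without T3 replicate 1, T3 replicate 2, quetiapine replicate 2, T3 replicate 3 or quetiapine replicate 3 (adjusted p up to 0.13). Fos, an immediate early gene, had 8.46, 9.54 and 9.75 with quetiapine and 10.37, 10.52 and 10.03 with T3, with all quetiapine arrays below the T3 arrays. Its difference was -1.06 (SE 0.29, adjusted p = 0.0391), lost without T3 replicate 1, quetiapine replicate 1, control replicate 2, T3 replicate 2, quetiapine replicate 2 or combination replicate 2 (adjusted p up to 0.145). The higher count became 2 with T3 replicate 1, quetiapine replicate 2, T3 replicate 3 or quetiapine replicate 3 left out, and the lower count 0 with T3 replicate 2 or quetiapine replicate 2 left out and 1 with T3 replicate 1, quetiapine replicate 1, T3 replicate 3 or quetiapine replicate 3 left out. Of 27 receptors and transporters that quetiapine is known to bind, 0 were higher and 1 was lower, the histamine receptor Hrh1 by -0.37 (SE 0.076, adjusted p = 0.012) with overlapping groups, lost without T3 replicate 2, quetiapine replicate 2, T3 replicate 3 or quetiapine replicate 3 (adjusted p up to 0.0771). Without control replicate 1 or combination replicate 1, 2 were lower. In shares, 0% were higher and 3.7% lower, against 6.66% and 7.77% of all genes, and the fit with no block left 0 higher and 0 lower. Other probe sets gave -0.049 for Fos and 0.021 and 0.086 for Hrh1, none past the test. Dusp6, Fos and Hrh1 did not pass without the replicate block (adjusted p = 0.12 to 0.286).

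**Figure D4:**
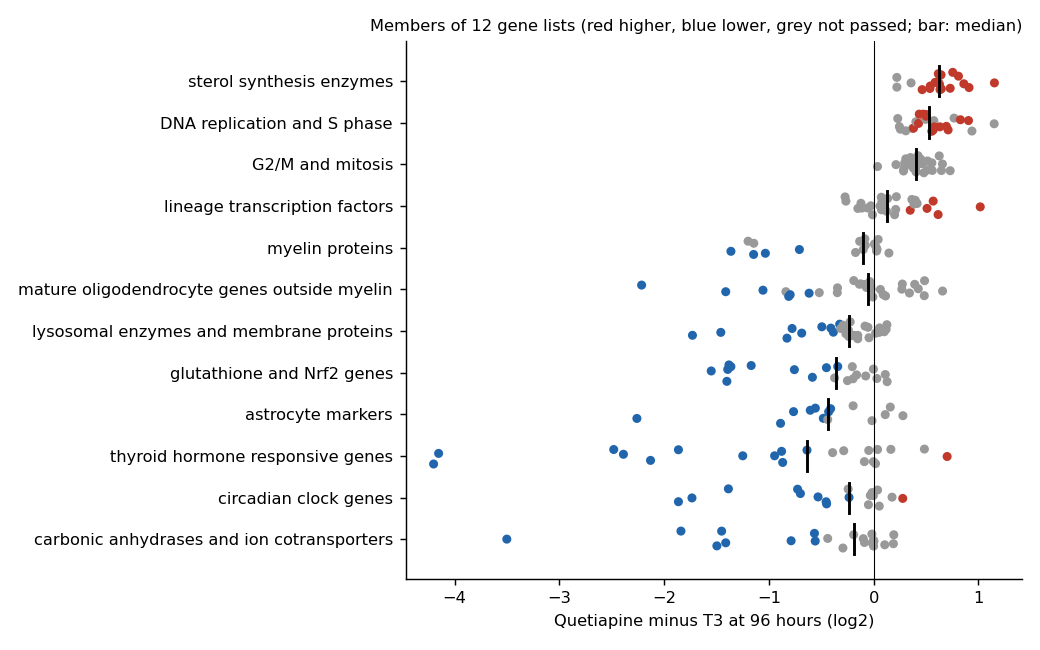
Difference quetiapine minus T3 at 96 hours (log2, x axis) of the measured members of 12 gene lists, 1 point a gene, red where higher and blue where lower at an adjusted p under 0.05 and grey otherwise, with the list's median as a black bar. All 19 sterol enzymes and all 28 S phase genes lie above 0, and thyroid hormone responsive genes reach -4.20.

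Most astrocyte markers were lower with quetiapine. The mean signal of 14 markers was 9.80, 10.77 and 10.52 with quetiapine and 10.32, 11.07 and 11.10 with T3, lower in each pair, and 10.68, 11.23 and 11.28 in the controls. Of the 14, 8 were lower and 0 higher, with a median of -0.43. All genes together gave 6.66% higher and 7.77% lower, where these gave 0% and 57.1%, and 0 and 2 passed in the fit with no block. Slc1a2, the glutamate transporter of astrocytes, had 4.91, 5.49 and 5.21 with quetiapine and 6.79, 7.74 and 7.86 with T3 and a difference of -2.26 (SE 0.22, adjusted p = 0.0002). Gfap had 12.66, 13.37 and 13.25 with quetiapine and 13.06, 13.68 and 13.77 with T3, a difference of -0.41 (SE 0.073, adjusted p = 0.0055). S100b and Clu differed by -0.89 (SE 0.12, adjusted p = 0.00118) and -0.60 (SE 0.11, adjusted p = 0.00605), and Glul, glutamine synthetase, by -0.76 (SE 0.11, adjusted p = 0.0015). Without quetiapine replicate 1, T3 replicate 2, T3 replicate 3 or quetiapine replicate 3, 5 were lower, and the 2 that passed with no block were Slc1a2 and Glul. For Slc1a2 and Glul the groups did not overlap, and for Gfap, S100b and Clu they overlapped. Second probe sets of Slc1a2 and Clu gave -0.28 (adjusted p = 0.196) and 0.0063 (adjusted p = 0.986), neither past the test. Over the 14 markers, 11 differences were negative and 3 positive, the highest 0.28. Quetiapine lay wholly below T3 for 2 markers and wholly above it for 2, beside 10.6% and 14% of all genes. The defining markers Slc1a3 and Aldh1l1 differed by -0.015 (95% interval -0.28 to 0.25) and 0.16 (-0.24 to 0.56). Whether these markers had a part in the results on redox, lysosomal, glycolytic, ion transport and signalling genes below was not tested. Gfap, S100b and Clu did not pass without the replicate block (adjusted p = 0.482 to 0.772).

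Of the other markers, 3 of 17 neuron genes were lower, 0 higher. The median of the 17 was 0.011, with 9 differences positive, up to 0.50, and 8 negative. As a share of the list, 0% were higher and 17.6% lower (6.66% and 7.77% of all genes), with 0 and 0 past the test without the block. The interneuron genes Gad1 and Dlx1 differed by -1.09 (SE 0.16, adjusted p = 0.0018) and -0.61 (SE 0.12, adjusted p = 0.00982), both with overlapping groups and the latter lost without T3 replicate 2 or quetiapine replicate 3 (adjusted p up to 0.0577). Without T3 replicate 2, 1 neuron gene was lower, and without control replicate 1, 2 were higher. The mean signal of 7 Schwann cell genes was 6.26, 6.60 and 6.67 with quetiapine and 6.84, 6.77 and 6.82 with T3, lower with quetiapine in each pair. Single members went both ways, with 3 differences positive, up to 0.34, 4 negative and a median of -0.065. Of these 7, 2 were lower and 0 higher, Pmp2, which is also a myelin gene, and the factor Pou3f1, with -1.16 (adjusted p = 0.0461). The count became 1 with any 1 of 9 single arrays left out, all 6 of quetiapine and T3 among them. Pou3f1 was lost without quetiapine replicate 1, control replicate 2, T3 replicate 2, quetiapine replicate 2, combination replicate 2, T3 replicate 3, quetiapine replicate 3 or combination replicate 3 (adjusted p up to 0.204). Pou3f1 did not pass without the replicate block (adjusted p = 0.0981). Shares over all genes were 6.66% higher and 7.77% lower, and here 0% and 28.6%, while 0 and 1 members passed without the block. Of 16 microglia and 17 vascular genes 0 passed in either direction, the largest microglia difference being -0.26 for Tyrobp (adjusted p = 0.483). Gad1 and Dlx1 did not pass without the replicate block (adjusted p = 0.61 to 0.804).

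Redox genes were lower with quetiapine. Of 20 genes of glutathione metabolism and the Nrf2 response, 10 were lower and 0 higher, with a median of -0.36. Without the block 0 passed as higher and 1 as lower, and the shares of 0% and 50% compare with 6.66% and 7.77% over all genes. Nqo1, a quinone reductase, had 9.80, 10.65 and 10.42 with quetiapine and 10.72, 12.08 and 12.21 with T3 and a difference of -1.38 (SE 0.17, adjusted p = 0.000644). Srxn1, which repairs oxidized peroxiredoxins, had 7.87, 9.10 and 9.13 with quetiapine and 8.89, 10.73 and 11.13 with T3, a difference of -1.55 (SE 0.20, adjusted p = 0.000902), and Slc7a11, the cystine importer, had 7.89, 8.96 and 9.25 with quetiapine and 8.96, 10.46 and 10.86 with T3, a difference of -1.39 (SE 0.11, adjusted p = 4.79e-05). For the last 2 genes the groups overlapped and replicate 1 was the lowest under both treatments. Gpx3, a secreted glutathione peroxidase, differed by -1.40 (SE 0.28, adjusted p = 0.0101) and Hmox1, which breaks down heme, by -1.36 (SE 0.11, adjusted p = 5.52e-05). Quetiapine minus control was -1.27 (adjusted p = 0.000762) for Nqo1 and -1.43 (adjusted p = 3.68e-05) for Hmox1, and T3 minus control was 0.12 (adjusted p = 0.69) and -0.069 (adjusted p = 0.721). For Nqo1, Gpx3 and Hmox1 the groups did not overlap. Other Srxn1 probe sets gave 0.036, which did not pass (adjusted p = 0.83), and -1.57, which passed. Mean astrocyte marker signal was lower on the same quetiapine arrays by 0.52, 0.29 and 0.58. Nqo1, Srxn1, Slc7a11, Gpx3 and Hmox1 did not pass without the replicate block (adjusted p = 0.0528 to 0.274).

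Lysosomal genes were lower for 9 of 28 members and higher for 0, with a median of -0.23. The shares, 0% higher and 32.1% lower, stand beside 6.66% and 7.77% of all genes, and without the replicate block 0 passed as higher and 4 as lower. Lipa, the acid lipase that frees cholesterol from lipoprotein, had 8.11, 7.95 and 7.82 with quetiapine and 9.79, 9.68 and 9.60 with T3 and a difference of -1.73 (SE 0.12, adjusted p = 2.22e-05). Ctsl, a cathepsin, had 12.47, 12.57 and 12.55 with quetiapine and 13.20, 13.38 and 13.50 with T3, close to each other within groups, and differed by -0.83 (SE 0.067, adjusted p = 5.28e-05). Scarb2, a lysosomal membrane protein, differed by -0.78 (SE 0.091, adjusted p = 0.000515). For Ctsl and Scarb2 both compounds stood above control, T3 by 1.90 and 1.71 and quetiapine by 1.07 and 0.93. Ctsh, another cathepsin, differed by -1.46 (SE 0.12, adjusted p = 5.28e-05), and there quetiapine minus control was -1.41 (adjusted p = 5.62e-05). For Lipa, Ctsl and Scarb2 the groups did not overlap, and for Ctsh they overlapped. Ctsh did not pass without the replicate block (adjusted p = 0.124).

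Glycolysis genes were lower for 7 of 24 members and higher for 0. Beside 6.66% higher and 7.77% lower over all genes, this list had 0% and 29.2%, and with no block 0 and 2 of its members passed. Pfkp and Pfkm, isoforms of phosphofructokinase, differed by -0.90 (SE 0.13, adjusted p = 0.00175) and -0.81 (SE 0.084, adjusted p = 0.00028), and the lactate carrier Slc16a1 by -0.80 (SE 0.11, adjusted p = 0.00122). Slc2a1, the glucose transporter of glia, differed by -0.96 (SE 0.24, adjusted p = 0.027), lost without quetiapine replicate 1, T3 replicate 2, quetiapine replicate 2, T3 replicate 3 or quetiapine replicate 3 (adjusted p up to 0.129). Of 32 genes of oxidative phosphorylation 2 were lower and 0 higher, with a median of -0.083. In shares, 0% were higher and 6.25% lower, against 6.66% and 7.77% of all genes, and the fit with no block left 0 higher and 1 lower. One of the 2 lower genes was Ppargc1a, a coactivator that promotes mitochondrial gene expression, with 6.95, 7.40 and 7.46 with quetiapine and 7.87, 8.15 and 8.27 with T3 and -0.83 (SE 0.14, adjusted p = 0.00452), and the other was Cyc1 by -0.21 (adjusted p = 0.0474), which was lost without every single array but 1 of the 12 (adjusted p up to 0.172). For Pfkp, Slc16a1, Slc2a1 and Ppargc1a the groups did not overlap, and for Pfkm they overlapped. Other probe sets gave 0.096 for Slc16a1 and 0.055 for Pfkm, neither past the test, and -0.81 for Pfkm, which passed. Pfkm, Slc16a1, Slc2a1 and Cyc1 did not pass without the replicate block (adjusted p = 0.0643 to 0.22).

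Clock genes were lower for 9 of 18 members and higher for 1, with a median of -0.24. All genes together gave 6.66% higher and 7.77% lower, where these gave 5.56% and 50%, and 0 and 3 passed in the fit with no block. Dbp, an output factor of the clock, had 7.74, 7.74 and 7.56 with quetiapine and 9.44, 9.65 and 9.53 with T3 and a difference of -1.86 (SE 0.08, adjusted p = 1.22e-06). Npas2, a partner of Bmal1, had 5.02, 5.30 and 4.96 with quetiapine and 6.20, 7.04 and 7.24 with T3 and -1.73 (SE 0.21, adjusted p = 0.000595), and Bhlhe40, a repressor, 5.23, 4.78 and 5.96 with quetiapine and 6.30, 6.59 and 7.24 with T3 and -1.39 (SE 0.15, adjusted p = 0.000289). Nr1d2 differed by -0.73 (SE 0.13, adjusted p = 0.00494). T3 stood above control for all 4, by 1.25, 1.48, 1.02 and 0.46, and quetiapine minus control was -0.61 (adjusted p = 0.000679) for Dbp. For Dbp, Npas2, Bhlhe40 and Nr1d2 the groups did not overlap. The 1 higher gene, Cry1, differed by 0.28 (SE 0.064, adjusted p = 0.0194) and was lost without T3 replicate 1, T3 replicate 2, quetiapine replicate 2 or quetiapine replicate 3 (adjusted p up to 0.103). The hour of day of the harvest is unknown here. Nr1d2 and Cry1 did not pass without the replicate block (adjusted p = 0.0751 to 0.0894).

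Genes of ion transport were lower for 8 of 21 members and higher for 0. As a share of the list, 0% were higher and 38.1% lower (6.66% and 7.77% of all genes), with 0 and 5 past the test without the block. Besides Slc12a7, the lower ones held the sodium pump subunits Atp1b1, with 9.27, 10.10 and 10.49 with quetiapine and 11.32, 11.98 and 12.08 with T3 and a difference of -1.84 (SE 0.13, adjusted p = 2.63e-05), and Atp1b2, with 9.55, 10.40 and 10.35 with quetiapine and 10.95, 11.80 and 11.91 with T3 and -1.45 (SE 0.086, adjusted p = 8.16e-06). Car8, a carbonic anhydrase relative without that activity, differed by -1.50 (SE 0.25, adjusted p = 0.00385). Among 27 potassium channel genes 2 were lower and 2 higher, and the higher count became 1 with T3 replicate 1, T3 replicate 2, quetiapine replicate 2, T3 replicate 3 or quetiapine replicate 3 left out. Shares over all genes were 6.66% higher and 7.77% lower, and here 7.41% and 7.41%, while 0 and 1 members passed without the block. Kcna2 differed by -1.07 (SE 0.15, adjusted p = 0.00135), the accessory subunit Kcnab2 by -1.06 (SE 0.13, adjusted p = 0.000652) and Kcnd2 by 0.74 (SE 0.10, adjusted p = 0.00109). Of 31 genes of glutamate and GABA signalling 4 were lower and 2 higher, the higher count becoming 1 with control replicate 1, T3 replicate 1, T3 replicate 2, combination replicate 2 or quetiapine replicate 3 left out. Without the block 1 passed as higher and 2 as lower, and the shares of 6.45% and 12.9% compare with 6.66% and 7.77% over all genes. The members that passed held the GABA receptor subunit Gabrg1, with 7.97, 8.42 and 8.25 with quetiapine and 9.25, 9.84 and 9.43 with T3 and -1.29 (SE 0.14, adjusted p = 0.000289), and the NMDA receptor subunit Grin2c, with -1.13 (SE 0.14, adjusted p = 0.000838). For Atp1b1, Atp1b2, Car8, Kcna2, Kcnab2, Gabrg1 and Grin2c the groups did not overlap, and for Kcnd2 they overlapped. Other probe sets gave -0.035 for Kcna2 and 0.060 and -0.043 for Kcnab2, none past the test. A further Kcnab2 probe set gave -0.49 and passed (adjusted p = 0.0481). Kcnab2, Kcnd2 and Grin2c did not pass without the replicate block (adjusted p = 0.0736 to 0.429).

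Signalling and surface genes gave mixed lists. Of 26 genes of the BMP and TGF-beta pathway 8 were lower and 2 higher, and the higher count became 1 with T3 replicate 1, T3 replicate 2, quetiapine replicate 2, T3 replicate 3 or quetiapine replicate 3 left out. The shares, 7.69% higher and 30.8% lower, stand beside 6.66% and 7.77% of all genes, and without the replicate block 1 passed as higher and 3 as lower. Bmp4, which turns precursors toward astrocytes, had 10.97, 11.67 and 11.22 with quetiapine and 12.24, 12.23 and 11.97 with T3 and a difference of -0.86 (SE 0.16, adjusted p = 0.00744). The protease Bmp1 differed by -0.94 (SE 0.10, adjusted p = 0.000238) and the ligand Tgfb2 by -0.86 (SE 0.12, adjusted p = 0.00175), while Bmp6 differed by -1.40 (SE 0.34, adjusted p = 0.0264), lost without T3 replicate 1, quetiapine replicate 1, T3 replicate 2, T3 replicate 3 or quetiapine replicate 3 (adjusted p up to 0.122). Among 43 guidance and adhesion genes 8 were lower and 3 higher, led by the semaphorin Sema3c, with 5.77, 8.14 and 9.15 with quetiapine and 8.42, 9.73 and 10.29 with T3. Preparations differed widely for Sema3c, each pair was lower with quetiapine, and the difference was -1.79 (SE 0.28, adjusted p = 0.00292). The lower count became 5 with T3 replicate 3 left out. Beside 6.66% higher and 7.77% lower over all genes, this list had 6.98% and 18.6%, and with no block 0 and 2 of its members passed. The ephrin receptors Epha4 and Epha3 differed by -1.52 (SE 0.19, adjusted p = 0.000686) and -0.97 (SE 0.077, adjusted p = 4.7e-05). For Bmp4, Bmp1, Tgfb2, Epha4 and Epha3 the groups did not overlap, and for Bmp6 and Sema3c they overlapped. Other probe sets that did not pass gave -0.019 and -0.12 for Bmp6, -0.010 for Epha3 and -0.12 for Epha4. Others that passed gave -0.98 for Bmp6, -0.61 for Epha3 and -1.21 and -0.81 for Epha4. Tgfb2, Bmp6, Sema3c, Epha4 and Epha3 did not pass without the replicate block (adjusted p = 0.106 to 0.391).

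Genes of the matrix and immune lists that passed were lower with quetiapine. For the matrix list their share was close to that of all genes. Of 35 matrix genes 3 were lower and 0 higher, the lower count becoming 1 with T3 replicate 1, quetiapine replicate 1, T3 replicate 2 or T3 replicate 3 left out, 5 with control replicate 1 left out and 6 with combination replicate 1 left out. In shares, 0% were higher and 8.57% lower, against 6.66% and 7.77% of all genes, and the fit with no block left 0 higher and 1 lower. Timp1, an inhibitor of matrix proteases, had 6.62, 7.68 and 7.38 with quetiapine and 8.45, 9.84 and 9.63 with T3 and a difference of -2.08 (SE 0.14, adjusted p = 2.22e-05). Of 29 inflammatory genes 5 were lower and 0 higher. All genes together gave 6.66% higher and 7.77% lower, where these gave 0% and 17.2%, and 0 and 1 passed in the fit with no block. Besides Ccl2 the lower ones were Psmb8, an immunoproteasome subunit, by -0.91 (SE 0.13, adjusted p = 0.00138), the hyaluronan receptor Cd44 by -0.68 (SE 0.095, adjusted p = 0.00143), B2m, the light chain of class I molecules, by -0.48 (SE 0.079, adjusted p = 0.00376), and Stat3 by -0.36 (adjusted p = 0.00794), lost without T3 replicate 2 (adjusted p up to 0.0533). Quetiapine minus control was -0.95 for Psmb8, -0.72 for Cd44 and -0.70 for B2m, all past the test, while T3 minus control was -0.034, -0.043 and -0.22 and did not pass. For Timp1 and Stat3 the groups did not overlap, and for Psmb8, Cd44 and B2m they overlapped. Psmb8, Cd44, B2m and Stat3 did not pass without the replicate block (adjusted p = 0.147 to 0.546).

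Of 22 granin and granule genes 10 were lower and 0 higher, but 2 with quetiapine replicate 3 left out, 3 with T3 replicate 2 left out, 4 with T3 replicate 3 left out and 6 with quetiapine replicate 2 left out. As a share of the list, 0% were higher and 45.5% lower (6.66% and 7.77% of all genes), with 0 and 1 past the test without the block. Ptprn, a granule membrane protein, differed by -0.82 (SE 0.077, adjusted p = 0.000147). Of 30 drug and steroid genes 8 were lower and 2 higher, the lower count becoming 4 with T3 replicate 3 left out and 5 with quetiapine replicate 3 left out and the higher count 1 with T3 replicate 1, quetiapine replicate 1, T3 replicate 2, quetiapine replicate 2 or T3 replicate 3 left out. Shares over all genes were 6.66% higher and 7.77% lower, and here 6.67% and 26.7%, while 1 and 1 members passed without the block. Ephx1, an epoxide hydrolase, differed by -1.004 (SE 0.10, adjusted p = 0.000241) and the cytochrome P450 gene Cyp2d4 by -1.20 (SE 0.14, adjusted p = 0.000511). Of 20 genes of retinoid metabolism 4 were lower and 1 higher, the higher one Rlbp1, a retinaldehyde carrier, by 0.35 (SE 0.083, adjusted p = 0.0239), lost without quetiapine replicate 1, T3 replicate 2, quetiapine replicate 2, T3 replicate 3 or quetiapine replicate 3 (adjusted p up to 0.108). Without the block 0 passed as higher and 3 as lower, and the shares of 5% and 20% compare with 6.66% and 7.77% over all genes. Besides Rpe65 and Aldh1a1 the lower ones held Rdh10, which oxidizes retinol, with -0.86 (SE 0.13, adjusted p = 0.0018). Of 19 genes of extracellular adenosine 3 were lower and 0 higher, with Ada, which deaminates adenosine, at -0.80 (SE 0.10, adjusted p = 0.000947). The shares, 0% higher and 15.8% lower, stand beside 6.66% and 7.77% of all genes, and without the replicate block 0 passed as higher and 2 as lower. Of 7 melanin genes 2 were lower, Dct and Gpnmb (-1.73 (SE 0.35, adjusted p = 0.0106)), the latter lost without quetiapine replicate 2 (adjusted p up to 0.0593). Beside 6.66% higher and 7.77% lower over all genes, this list had 0% and 28.6%, and with no block 0 and 1 of its members passed. For Ptprn, Ephx1, Cyp2d4, Rdh10, Ada and Gpnmb the groups did not overlap, and for Rlbp1 they overlapped. A second Rdh10 probe set gave 0.053 and did not pass (adjusted p = 0.787). Ptprn, Cyp2d4, Rlbp1, Ada and Gpnmb did not pass without the replicate block (adjusted p = 0.0578 to 0.809).

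The difference between the compounds was already present at 48 hours. There, 199 probe sets (0.641%) were higher with quetiapine and 672 (2.16%) lower. Of the 350 probe sets higher at 96 hours, 337 (96.3%) had a positive difference at 48 hours and 115 were also called higher, which is 32.9% of the 96 hour calls and 57.8% of the 48 hour calls. Of the 993 lower ones, 983 (99.0%) were negative at 48 hours and 526 were called lower, 53.0% of the 96 hour and 78.3% of the 48 hour calls. The probe sets were chosen at 96 hours, and their median difference was 0.47 and -0.63 at 48 hours. A test of the change of the difference between the times called 8 probe sets (0.0258%) that moved toward quetiapine and 12 (0.0387%) that moved toward T3. With single arrays or preparations left out, those counts ranged from 0 to 30 and from 0 to 89. Both were 0 with preparation 2 left out, and the 89 came with T3 replicate 1 of 96 hours left out. Without the replicate block they were 1 and 0.

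Of the 10 genes named for a change between the times, 5 moved toward T3. Scg2, with a difference of -2.16 (adjusted p = 0.000141) at 48 hours, moved further the same way, with a change of -2.41 (adjusted p = 0.0129). Fgl2 had 3.41, 3.55 and 3.85 with T3 and 3.15, 3.33 and 3.45 with quetiapine at 48 hours, against a difference of -3.46 at 96 hours, with a change of -3.16 (adjusted p = 0.00376). Gabrg1, at -0.22 (adjusted p = 0.26) at 48 hours, changed by -1.07 (adjusted p = 0.0435), the glutathione transferase Mgst1 by -1.50 (adjusted p = 0.0435) and Ppp1r1b, a phosphatase inhibitor of dopamine signalling, by -1.41 (adjusted p = 0.0363). Cyp3a23-3a1 moved the other way, with 4.20, 4.46 and 4.32 with quetiapine and 4.46, 4.38 and 4.31 with T3 at 48 hours and a change of 1.69 (adjusted p = 0.000937). At 96 hours the difference of Ppp1r1b was -2.38 (SE 0.12, adjusted p = 3.76e-06), and by that contrast Ppp1r1b did not pass without the replicate block (adjusted p = 0.0923).

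Deptor, Zfp536 and Stard13 had a difference nearer 0 at 96 than at 48 hours, whereas Rem2 had a larger one. Deptor, an inhibitor of mTOR, had 5.62, 5.97 and 7.55 with quetiapine and 7.16, 8.21 and 8.73 with T3 at 48 hours, a difference of -1.65 (adjusted p = 0.000391). At 96 hours it had 10.16, 10.23 and 10.09 with quetiapine and 9.79, 10.13 and 10.06 with T3, a difference of 0.16 (95% interval -0.022 to 0.35), and the change was 1.82 (adjusted p = 0.00376). Zfp536, a zinc finger factor of the lineage list, went from -1.56 (adjusted p = 1.41e-05) to -0.27, a change of 1.29 (adjusted p = 0.0179), and Stard13 from -2.09 (adjusted p = 1.15e-05) to -0.95 (SE 0.10, adjusted p = 0.00028), a change of 1.14 (adjusted p = 0.0192). The GTPase Rem2 went from 0.05 (adjusted p = 0.789) to 0.99 (SE 0.13, adjusted p = 0.00119). For Stard13 the groups did not overlap, and for Rem2 they overlapped. A second Rem2 probe set gave 0.35 at 96 hours and did not pass (adjusted p = 0.069). Of 8 reference genes B2m alone passed at 96 hours with all arrays, and Hprt1 differed by 0.15 (95% interval 0.0016 to 0.30). For the difference at 96 hours, Rem2 did not pass without the replicate block (adjusted p = 0.0837).

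**Figure D5:**
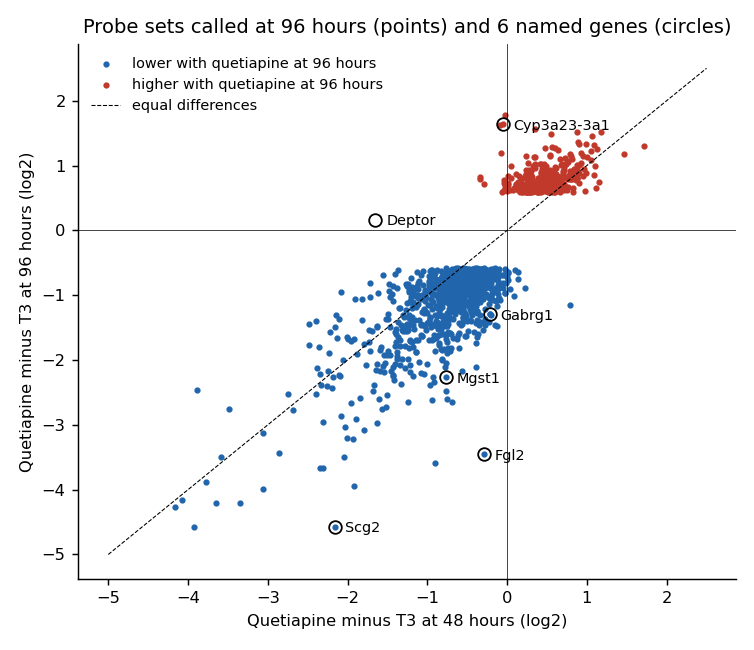
Difference quetiapine minus T3 at 48 hours (x axis) and at 96 hours (y axis), both log2, for the probe sets called at 96 hours (points) and 6 genes whose difference changed between the times (circles), with a dashed line where both are equal. Most points lie on the same side of 0 at both times, and Fgl2 lies near 0 at 48 hours and at -3.46 at 96 hours.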

How the data were processed

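RNA of 24 OPC cultures was measured on Affymetrix rat arrays. The values are on the log2 scale as deposited, and the authors' processing notes name RMA, a method that corrects background, normalizes arrays by quantiles and summarizes probes. They carry no detection calls. The table holds 31099 rows, of which 57 are spike-in and other controls that were not analysed, which leaves 31042. The platform annotation gave 20826 of them 1 symbol, 436 several and 9780 none, and only those with 1 symbol were named. limma 3.58.1 in R 4.3.3 was fitted to the 12 arrays of 96 hours with 4 group means and the replicate number as a fixed block. P-values were adjusted by the Benjamini-Hochberg method over all 31042 probe sets. The same fit was made on the 12 arrays of 48 hours, and a fit of all 24 arrays with 6 blocks tested the change of the difference between the times. The scripts were tested on simulated data with known changes.

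The series' design text pairs the arrays, since each of the 3 biological replicates gave a culture of each condition. Deviations from the group means of the same replicate number correlated at 0.309 to 0.690 over 18 pairs of groups, and at -0.583 to 0.243 between different numbers. The sources used here name no block for the study's own comparisons. Values without it are therefore given for most of the lists described and for named genes that no longer passed. Counts are not given for the Wnt, galactolipid and sphingolipid, sphingosine-1-phosphate, stress response, contractile actin and insulin-like growth factor lists.

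Each listed gene was represented by 1 probe set, the one of its own symbol whose mean over the 24 arrays was highest, and a member "passed" at an adjusted p under 0.05. Named genes were the 15 largest differences each way whose arrays did not overlap, up to 4 members of each of 47 lists, the genes named in the study's text and the 5 largest changes each way between the times. Acly, Acss2, Aspa, Ccne2, Gfap, Hmox1, Pold1 and Stat3, and genes given for an interval (Aldh1l1, Olig1, Pdgfra, Slc1a3, Thra and Thrb), were chosen after their values were seen. Gene lists, members and tests were chosen with earlier results of these data known. Alternatives were no block, a random block, median-centred arrays, a minimum mean of 6, eBayes with trend and robust, only the 6 arrays, other thresholds, the mean over a gene's probe sets, and leaving out each array or preparation. Promoter motifs were planned and not run, as no promoter sequences were used here. Intervals are 95% intervals of the fitted difference before adjustment, and the number of arrays limits the precision.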

Additional observations from a re-analysis of the deposited data

Results flagged for a closer look

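The 10 genes here stood out because the difference between quetiapine and T3 changed from 48 to 96 hours by the limma test of that change itself, with p-values adjusted over all probe sets. No cause was tested for any of them. For Cyp3a23-3a1 the change was 1.69 (adjusted p = 0.000937), from a difference of -0.057 (adjusted p = 0.759) at 48 hours to 1.63 at 96 hours. For Fgl2 it was -3.16 (adjusted p = 0.00376) and for Scg2 -2.41 (adjusted p = 0.0129), both toward T3. Deptor changed by 1.82 (adjusted p = 0.00376), Zfp536 by 1.29 (adjusted p = 0.0179) and Stard13 by 1.14 (adjusted p = 0.0192), and in each the difference at 96 hours was nearer 0. Gabrg1 changed by -1.07 (adjusted p = 0.0435), Mgst1 by -1.50 (adjusted p = 0.0435) and Ppp1r1b by -1.41 (adjusted p = 0.0363), each with a more negative difference at 96 hours. The change of Rem2 was 0.94 (adjusted p = 0.0435). Without the replicate block this test called 1 probe set that moved toward quetiapine and 0 toward T3.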

How the results depend on the processing

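Without the replicate block, 126 probe sets were called higher and 445 lower at 96 hours, 70 and 240 at 48 hours, and 1 and 0 for the change between the times, where with the block the counts were 350 and 993, 199 and 672, and 8 and 12. At 96 hours the adjusted p alone gave 1721 higher and 1898 lower, and an adjusted p under 0.01 with a fold over 2 gave 41 and 391. Leaving out 1 array or 1 whole preparation gave 129 to 552 higher and 607 to 1185 lower at 96 hours, 89 to 252 and 391 to 750 at 48 hours, and 0 to 30 and 0 to 89 for the change. The highest counts at 96 hours came without preparation 1, the lowest count of higher probe sets without preparation 2 and the lowest count of lower ones without preparation 3. Median centring, the filter at a mean of 6, trend and robust moderation, the 6 arrays alone and the random block kept both counts at 96 hours within 1.5 times. Of 184 named probe sets 173 passed, and these 173 had the same sign in all 21 alternative fits. That sign could change only where a quetiapine or T3 array or a whole preparation was left out. The other fits return the same difference, or with centring one shifted by a small constant, so they do not test it. Of the 173, 115 passed without every single array in turn, 72 without the replicate block, 142 with a random block, 166 with the 6 arrays alone, 162 with trend and robust moderation and 172 after centring, and all 158 above the filter passed it. Without preparation 1, 2 or 3, 163, 94 and 96 passed. The causes of these shifts were not tested. Promoter motifs were not run. The arrays carry no detection calls, so weak signals have no stated floor, and 3 arrays a group leave differences below about the interval widths given unresolved.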
